A study of Mus musculus with 8 samples.

Results

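The genes described here are 45 members of the machinery that copies and divides chromosomes, followed across 4 stromal cell populations of the newborn mouse bone marrow. They were chosen by symbol for their roles in the cell cycle. All 45 were present among the 15880 genes of the table, each with 1 Ensembl identifier. Of these, 18 act in DNA replication (*Mcm2* to *Mcm7*, *Pcna*, *Rrm1*, *Rrm2*, *Cdc6*, *Cdc45*, *Ccne1*, *Ccne2*, *E2f1*, *Cdt1*, *Gins2*, *Tyms* and *Uhrf1*) and 27 in mitosis.

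As background, a dividing cell passes through waves of transcription. At the entry into S phase, E2F factors switch on the genes for cyclin E, for licensing factors that load the Mcm helicase on origins, and for nucleotide synthesis. Later in the cycle, complexes of MuvB with B-Myb and Foxm1 switch on the cyclins, kinases, kinesins and kinetochore proteins of mitosis, and quiescent cells hold both waves off. In newborn bone, dividing progenitors sustain the growth of the skeleton, and red cell precursors in the marrow divide rapidly before they mature.

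The cells came from C57BL/6 pups, heterozygous for *Nes-Gfp*, on postnatal day 1. The GFP of this transgene reports the activity of control sequences taken from rat *nestin*, and not that of the mouse gene itself. By the sample labels, crushed long bones and scapulae were digested with collagenase (the study's methods name long bones and sterna), and 15000 to 80000 cells per sample, free of CD45, CD31 and Ter119, were sorted by GFP and by surface Pdgfra. Each of the 8 libraries was made from a pool of 3 pups by amplification of cDNA, with 2 libraries per population. Libraries with the same replicate number were read as coming from a shared pool, which the labels do not state for each library. The main fit did not pair them, and a fit with the replicate as a block is given below. The populations are called double-positive (GFP and Pdgfra), Pdgfra-only, GFP-only and double-negative, and the libraries of each are given in the order of replicates 1 and 2. Pdgfra is a receptor of mesenchymal stroma, and the study used the 2 labels to divide that stroma.

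Values are the deposited signal, which is linear in a gene's reads plus 0.5, scaled to the effective size of the library. The libraries held between 3221217 and 5302762 reads on genes, with a median of 3604130. A gene with 3 reads, taken as the floor of counting, has a signal between 0.825 and 1.04. No member was at or under that floor in any library. The lowest count was 4 reads for *Ccne1* in replicate 1 of the Pdgfra-only cells, and the highest was 27425 reads for *Mki67* in replicate 2 of the double-negative cells. Intervals and floors cover counting error only, since reads of amplified cDNA are not independent molecules.

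The transcripts of the sorting labels followed the gates. *Pdgfra* had a signal of 733 and 754 in double-positive, 839 and 794 in Pdgfra-only, 18.1 and 10.4 in GFP-only and 3.3 and 4.36 in double-negative libraries. Mouse *Nes* was at 57.6 and 72 in double-positive, 27.4 and 47.1 in Pdgfra-only, 149 and 176 in GFP-only and 3.59 and 9.08 in double-negative libraries. Both GFP-sorted populations were thus above their GFP-negative counterparts for *Nes*, although Pdgfra-only cells also carried the transcript. Of 5 genes of Pdgfra-positive mesenchyme, 5 were called higher in double-positive, Pdgfra-only and GFP-only cells than in double-negative cells. The summed signal of these 5 was 53080 and 40051 in double-positive, 18699 and 17007 in Pdgfra-only, 3399 and 2899 in GFP-only and 462 and 593 in double-negative libraries, with *Col1a1* the most abundant.

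The members were most abundant in the double-negative cells. Their summed signal was 1430 and 1187 in double-positive libraries, 798 and 648 in Pdgfra-only libraries, 2296 and 2059 in GFP-only libraries and 14952 and 16407 in double-negative libraries. The 4 pairs of libraries did not overlap, and the populations ran from Pdgfra-only at the bottom through double-positive and GFP-only to double-negative at the top. For 40 of the 45 members the 4 population means fell in this order, which held for 12% of all genes. The exceptions were *Plk1*, *Kif20a*, *Mcm3*, *Gins2* and *Tyms*. For 45 of 45 members both double-negative libraries lay above the other 6 libraries, a separation seen for 26.8% of all genes. In bulk samples such as these, fewer cells in cycle and less of each transcript per cell cannot be told apart.

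Both lists followed that order, with different spacing. The median log2 of the signal plus 1 over the mitosis members was 4.47 and 4.41 in double-positive, 3.52 and 3.15 in Pdgfra-only, 4.82 and 4.84 in GFP-only and 7.26 and 7.26 in double-negative libraries. The median over the replication members was 4.36 and 4.1 in double-positive, 3.71 and 3.60 in Pdgfra-only, 4.65 and 5.13 in GFP-only and 7.83 and 7.81 in double-negative libraries. Over all 15880 genes the same median stayed between 3.20 and 3.73. In double-positive cells the mitosis median was the higher of the 2 lists in both libraries, and in double-negative and Pdgfra-only cells the replication median was. These levels are not corrected for gene length, and per kilobase the double-positive medians were 4.97 for mitosis and 5.01 for replication.

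**Figure D1:**
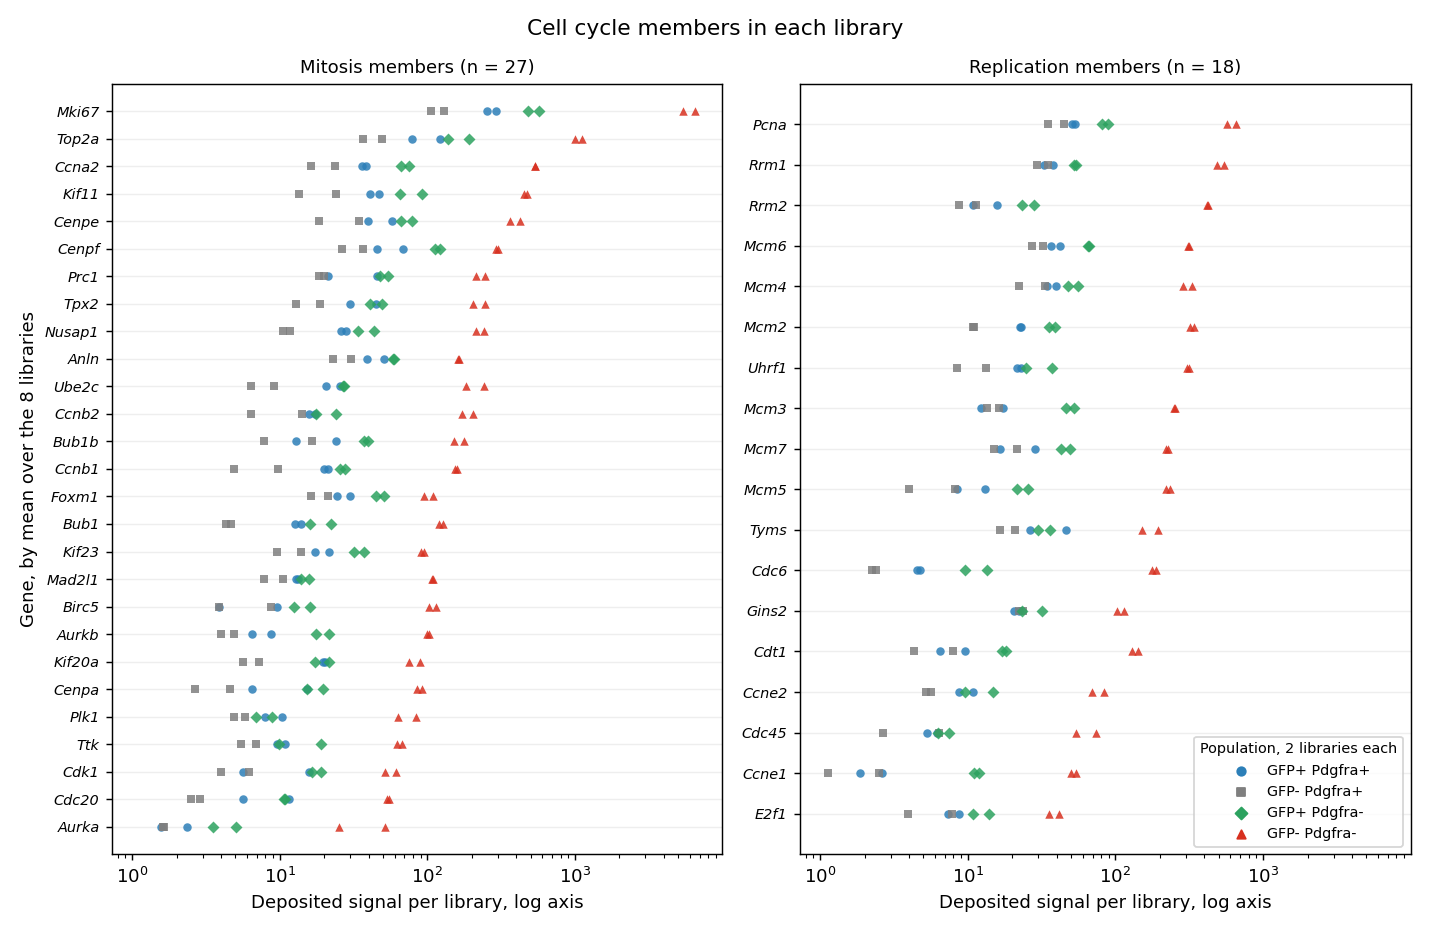
Each point is the deposited signal of a gene (vertical axis, ordered by mean) in 1 library, on a log axis, for the 27 mitosis members (left) and the 18 replication members (right), with colour and shape marking the population. The double-negative libraries lie to the right of the other 6 for 45 of 45 members, and *Mki67* reaches 6467.

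Markers of other cell types moved with these levels. Of 10 erythroid genes, 8 were in the table (*Hbb-bh1* and *Ahsp* were not listed), and their summed signal was 37 and 44 in double-positive, 47.4 and 37.4 in Pdgfra-only, 132 and 79.8 in GFP-only and 11036 and 18167 in double-negative libraries. The most abundant was *Hbb-b1*, a beta-globin, at 4362 and 7619 in double-negative libraries and at no more than 51.4 in the other libraries. *Klf1*, the regulator that defines the erythroid lineage, was at 150 and 169 in double-negative libraries and between 0.431 and 2.55 elsewhere. In limma 8 of 8 were called higher in double-negative cells than in each other population. The double-negative cells thus carried red cell precursor transcripts although cells with the surface marker Ter119 had been removed, and the part of these cells in the result was not tested.

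The other lists of marker genes were smaller in signal or peaked in other populations. For 9 genes of blood progenitors and myeloid cells the sums were 8.98 and 25.7 in double-positive, 26.1 and 17.4 in Pdgfra-only, 40.2 and 40.3 in GFP-only and 418 and 335 in double-negative libraries. *Kit*, a receptor of blood progenitors that early erythroid cells also carry, made up most of the last sums at 347 and 266. The pan-blood marker *Ptprc*, which encodes CD45, was at 11.3 and 6.72 in double-negative libraries and at 1.58 or less elsewhere.

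In GFP-only cells the lists of muscle, Schwann cell and pericyte genes were at their highest. The 7 skeletal muscle genes summed to 716 and 723 there, against 43.8 and 53.3 in double-positive, 20.5 and 17.7 in Pdgfra-only and 19.1 and 10.7 in double-negative libraries, with the satellite cell regulator *Pax7* the most abundant. The 6 Schwann cell precursor genes summed to 439 and 403 in GFP-only, 186 and 166 in double-positive, 71.9 and 71.9 in Pdgfra-only and 24.1 and 41 in double-negative libraries. *Ngfr*, the most abundant of them over all libraries, ran against the list, at 94.6 and 109 in double-positive, 59.1 and 49.5 in Pdgfra-only, 33.6 and 23.3 in GFP-only and 2.44 and 2.71 in double-negative libraries. *Sox10*, which defines the lineage, was at 83.2 and 85.8 in GFP-only and 13.4 and 9.34 in double-positive libraries. The 5 pericyte and smooth muscle genes, led by *Rgs5*, summed to 1577 and 2075 in GFP-only, 368 and 273 in double-positive, 306 and 331 in Pdgfra-only and 61.3 and 103 in double-negative libraries. GFP-only cells, second in their levels of the cell cycle genes, thus carried transcripts of several lineages, whose part in the result was not tested.

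The skeletal lists peaked in other populations. The 5 osteoblast genes, led by *Col1a1*, summed to 54214 and 40461 in double-positive, 16956 and 15429 in Pdgfra-only, 3301 and 2747 in GFP-only and 455 and 585 in double-negative libraries, and *Col1a1* also belongs to the mesenchymal list. The 6 chondrocyte genes, led by *Col2a1*, summed to 292 and 370 in double-positive, 603 and 1958 in Pdgfra-only, 66.8 and 96.2 in GFP-only and 501 and 914 in double-negative libraries. Osteoblast genes were thus highest in the double-positive cells, and the chondrocyte sums of the Pdgfra-only and double-negative libraries overlapped.

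The remaining lists were low. The 6 endothelial genes, led by *Tek*, summed to 48.6 and 72.7 in double-positive, 49.4 and 51.4 in Pdgfra-only, 45.9 and 93.4 in GFP-only and 31.6 and 121 in double-negative libraries. Of 6 B lineage genes, 2 were in the table, led by *Ighm*, with sums of 0.829 and 2.3 in double-positive, 1.01 and 1.19 in Pdgfra-only, 6.31 and 1.03 in GFP-only and 5.46 and 7.31 in double-negative libraries. Of 4 megakaryocyte genes, 2 were in the table, led by *Itga2b*, with sums of 1.66 and 5.46 in double-positive, 4.03 and 3.56 in Pdgfra-only, 1.21 and 1.29 in GFP-only and 2.01 and 5.19 in double-negative libraries. The megakaryocyte sums of all but the GFP-only cells overlapped, and the B lineage sums of the GFP-only cells overlapped those of each other population. Of 4 neuronal genes, 2 were in the table, led by *Stmn2*, and their highest sum was 5.94 in replicate 2 of the Pdgfra-only cells. None of the 3 epidermal genes was listed. No marker gene was at or under 3 reads in all 8 libraries.

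The share of reads on 15 mitochondrial genes followed the same order at its upper end. It was 13% and 13.7% in double-positive, 14.4% and 14.5% in Pdgfra-only, 24.2% and 22.2% in GFP-only and 36.9% and 39.1% in double-negative libraries, with Wilson 95% intervals no wider than 0.0939 points. The double-negative libraries were highest in this share, and its part in the result was not tested.

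**Figure D2:**
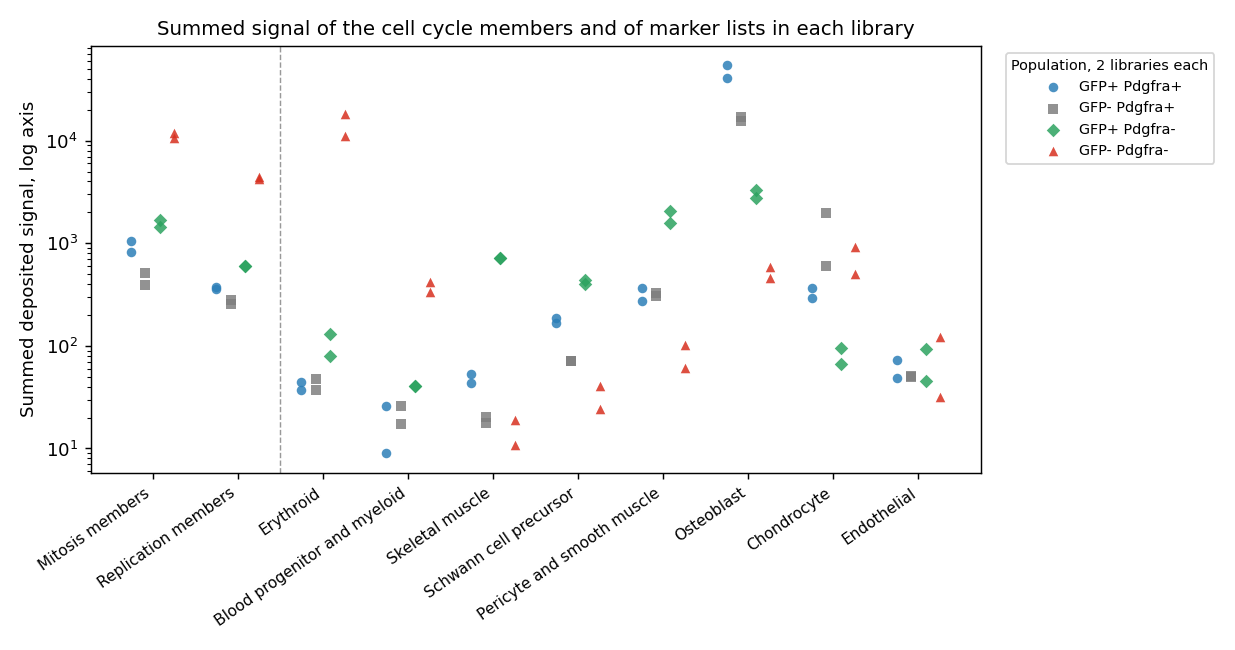
The vertical log axis gives the summed deposited signal of each list in 1 library, with 2 points per population. The mitosis and replication sums run from Pdgfra-only to double-negative cells, erythroid genes reach 18167 in double-negative cells, and muscle, Schwann cell and pericyte genes peak in GFP-only cells.

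Individual members show how these sums arise. *Mki67* encodes Ki-67, a protein of the mitotic chromosome surface that is kept in cycling cells and lost on exit from the cycle (ENSMUSG00000031004, NCBIM37 chromosome 7, 142881471 to 142908062, minus strand). Its signal was 294 and 255 in double-positive, 130 and 106 in Pdgfra-only, 571 and 477 in GFP-only and 5385 and 6467 in double-negative libraries. The 4 pairs were separate. *Mki67* was the largest mitosis member in each population, and without it the mitosis sum was still 761 and 574 in double-positive, 387 and 286 in Pdgfra-only, 1128 and 977 in GFP-only and 5308 and 5507 in double-negative libraries. *Top2a* encodes the topoisomerase that untangles sister chromatids (ENSMUSG00000020914, chromosome 11, 98854257 to 98885503, minus strand). Its signal was 121 and 78.3 in double-positive, 49.5 and 36.4 in Pdgfra-only, 191 and 138 in GFP-only and 1109 and 996 in double-negative libraries, again without overlap.

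The mitotic cyclin and kinesins repeated the order. *Ccna2* encodes cyclin A, which drives S phase and entry into mitosis (ENSMUSG00000027715, chromosome 3, 36463788 to 36471072, minus strand). It had a signal of 38.5 and 36.1 in double-positive, 23.6 and 16.2 in Pdgfra-only, 75.1 and 66 in GFP-only and 540 and 537 in double-negative libraries. *Kif11* encodes the kinesin that separates the spindle poles (ENSMUSG00000012443, chromosome 19, 37450893 to 37496349, plus strand), and had 47.4 and 41 in double-positive, 24.1 and 13.5 in Pdgfra-only, 92.4 and 65.2 in GFP-only and 476 and 451 in double-negative libraries. Neither gene overlapped between any 2 populations. *Kif20a*, a kinesin of the central spindle in cytokinesis (ENSMUSG00000003779, chromosome 18, 34784278 to 34792919, plus strand), departed from the order. Its signal was 19.5 and 20.3 in double-positive, 5.67 and 7.28 in Pdgfra-only, 17.4 and 21.7 in GFP-only and 75.1 and 89 in double-negative libraries, so that the double-positive pair lay inside the GFP-only pair. *Kif20a* shares 965 exon bases with *Cdc23* on the opposite strand, and since the strand of the reads is not stated, its values are uncertain. *Cdc23* itself was flat, at 78.9 and 92.1 in double-positive, 90.4 and 88.7 in Pdgfra-only, 81.5 and 88.4 in GFP-only and 94.9 and 96.6 in double-negative libraries.

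Among the replication members, *Pcna* encodes the clamp that holds DNA polymerases on their template (ENSMUSG00000027342, chromosome 2, 132074898 to 132079050, minus strand). Its signal was 51 and 53 in double-positive, 45 and 34.9 in Pdgfra-only, 89 and 80.9 in GFP-only and 570 and 659 in double-negative libraries. The pairs did not overlap, but the double-positive and Pdgfra-only pairs lay close. *Rrm1* and *Rrm2* encode the large and small subunits of ribonucleotide reductase, which makes deoxynucleotides (ENSMUSG00000030978, chromosome 7, 109590209 to 109618285, plus strand, and ENSMUSG00000020649, chromosome 12, 25393106 to 25399011, plus strand). *Rrm1* had 38 and 32.9 in double-positive, 29.6 and 34.9 in Pdgfra-only, 54 and 52.4 in GFP-only and 491 and 542 in double-negative libraries. *Rrm2* had 10.9 and 15.7 in double-positive, 8.7 and 11.4 in Pdgfra-only, 23.2 and 27.9 in GFP-only and 426 and 416 in double-negative libraries. For both subunits the double-positive and Pdgfra-only pairs overlapped. *Mcm6*, a subunit of the replicative helicase (ENSMUSG00000026355, chromosome 1, 130228168 to 130256233, minus strand), had 42.1 and 36.4 in double-positive, 32.1 and 27.2 in Pdgfra-only, 66.2 and 65.2 in GFP-only and 309 and 313 in double-negative libraries, without overlap.

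The remaining replication members with full statistics are *Cdc6* and *Ccne1*. *Cdc6* encodes a loader of the Mcm helicase (ENSMUSG00000017499, chromosome 11, 98769115 to 98785254, plus strand), with a signal of 4.56 and 4.74 in double-positive, 2.4 and 2.23 in Pdgfra-only, 13.5 and 9.65 in GFP-only and 178 and 188 in double-negative libraries. *Ccne1* encodes cyclin E1, which drives the step from G1 to S phase (ENSMUSG00000002068, chromosome 7, 38883003 to 38892553, minus strand), with 2.62 and 1.87 in double-positive, 1.13 and 2.52 in Pdgfra-only, 11 and 12 in GFP-only and 50.4 and 53.9 in double-negative libraries. The 4 pairs of *Cdc6* were separate, whereas the 2 Pdgfra-positive populations overlapped for *Ccne1*, close to the floor.

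Differences were tested with limma on log2 of the signal plus 1 in a fit of all 8 libraries, with p-values adjusted over all 15880 genes and a gene called at an adjusted p of at most 0.05. Folds are likewise of the signal plus 1, which makes them smaller than folds of the signal in genes of low level. With 2 libraries on each side an exact permutation test cannot go below a two-sided p of 0.333, so limma's shared estimate of the spread carries the tests. The 6 pairwise comparisons share populations, and their values are given side by side without relating them.

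The first question is how the cells without either label differ from each labelled population. All 45 members were called lower in GFP-only than in double-negative cells, where 23.6% of all genes were called lower, 30.1% higher and 53.7% in either direction. All 45 were called lower in Pdgfra-only than in double-negative cells (all genes: 26.8% lower, 32.9% higher and 59.7% in either direction). All 45 were also called lower in double-positive than in double-negative cells (all genes: 26.4% lower, 32.9% higher and 59.3% in either direction). No member was called higher in these comparisons in limma, and the counts were 0 also at an unadjusted p under 0.05 and in edgeR and voom. The median log2 fold change of the 45 was -2.52 in GFP-only, -3.91 in Pdgfra-only and -3.13 in double-positive cells, beside medians of 0.15, 0.17 and 0.20 over all genes. These medians correspond to values of the signal plus 1 that are 5.72-fold, 15-fold and 8.75-fold lower than in double-negative cells.

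The replication members lay further down than the mitosis members in the comparisons of both GFP-sorted populations with double-negative cells. Their medians were -2.71 against -2.43 in GFP-only and -3.64 against -3.01 in double-positive cells, and -3.94 against -3.90 in Pdgfra-only cells. Whether the lists differ was not tested. *Rrm2* had the largest decrease in GFP-only cells, with a log2 fold change of -4.00 ± 0.22 (SE, n = 2 per population, limma adjusted p = 2.96e-08). *Cdc6* had the largest decrease in Pdgfra-only cells, at -5.80 ± 0.28 (adjusted p = 4.37e-09), and in double-positive cells, at -5.03 ± 0.28 (adjusted p = 1.61e-08). *Mki67* had the largest among the mitosis members, at -3.50 ± 0.15 in GFP-only, -5.64 ± 0.15 in Pdgfra-only and -4.43 ± 0.15 in double-positive cells (adjusted p = 3.44e-09, 6.85e-11 and 3.89e-10). Its signal plus 1 was thus 11.3-fold, 49.8-fold and 21.5-fold below the double-negative level.

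By role, the replication members fell as follows in GFP-only, Pdgfra-only and double-positive cells against double-negative cells. The G1/S cyclins and E2F (*Ccne1*, *Ccne2*, *E2f1*) had median log2 fold changes of -2.09, -3.60 and -2.86. Licensing and helicase activation (*Cdc6*, *Cdt1*, *Cdc45*, *Gins2*) had medians of -2.95, -3.97 and -3.60. *Gins2*, a subunit of the active helicase complex, fell least of the 45 in Pdgfra-only cells, at -2.18, and 2758 of its 4097 exon bases overlap *Gse1* on the opposite strand, so that its values are uncertain. The 6 Mcm subunits, which form a ring together, had medians of -2.44, -3.78 and -3.56, with a range from -2.23 for *Mcm6* to -3.22 for *Mcm5* in GFP-only cells. The 3 genes of nucleotide supply (*Rrm1*, *Rrm2* and the thymidylate synthase *Tyms*) had medians of -3.25, -3.96 and -3.83. *Uhrf1*, which brings the maintenance DNA methylase to newly copied DNA, had -3.30, -4.74 and -3.74. Every replication role thus fell in the same direction, with nucleotide supply lowest among the medians of the multi-gene roles in GFP-only cells.

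The mitotic roles fell in the same direction. The mitotic cyclins, *Cdk1* and *Foxm1* had medians of -2.51, -4.16 and -2.87, and *Foxm1*, the transcription factor of this wave, fell least of all members in GFP-only cells, at -1.08. The mitotic kinases (*Aurka*, *Aurkb*, *Bub1*, *Bub1b*, *Plk1* and *Ttk*) had medians of -2.48, -3.78 and -3.14. Genes of the chromosomal passenger complex and the kinetochore (*Birc5*, *Cenpa*, *Cenpe*, *Cenpf* and *Mad2l1*) had medians of -2.43, -3.91 and -3.01. Spindle motors and assembly factors (*Kif11*, *Kif20a*, *Kif23*, *Tpx2* and *Nusap1*) had medians of -2.29, -3.77 and -2.58. The activator *Cdc20* and the ubiquitin-conjugating enzyme *Ube2c* of the anaphase-promoting complex had medians of -2.57, -4.25 and -2.87. *Prc1* and *Anln*, which act in the cleavage of the cell, had medians of -1.80, -3.04 and -2.34, the least negative among the mitotic roles with more than 1 gene.

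The second question is what GFP marks within the Pdgfra-positive stroma. Here 15 of 45 members were called higher in double-positive than in Pdgfra-only cells, where 3.22% of all genes were called higher, 2.13% lower and 5.35% in either direction. In limma 0 members were called lower, and 0 were lower at an unadjusted p under 0.05, in edgeR or in voom. For 32 of 45 members both double-positive libraries lay above both Pdgfra-only libraries, as they did for 23.4% of all genes. The median log2 fold change was 0.72, beside 0.00 over all genes, which is 1.64-fold in signal plus 1.

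Most of the members called were mitosis members, and whether the lists differ was not tested. Of the 27, 13 were called (*Mki67*, *Top2a*, *Ccna2*, *Ccnb1*, *Bub1*, *Cenpf*, *Kif11*, *Kif20a*, *Tpx2*, *Nusap1*, *Cdc20*, *Ube2c* and *Anln*), with a median of 0.82 over the list. Of the 18 replication members, *Mcm2* and *Uhrf1* were called, and the median was 0.39. *Kif20a* had the largest increase, with a log2 fold change of 1.49 ± 0.24 (SE, n = 2, adjusted p = 0.00339), or 2.81-fold. *Ube2c* followed at 1.47 and the cyclin *Ccnb1*, a partner of Cdk1 in mitosis, at 1.44. *Mki67* was 2.32-fold higher, at 1.21 ± 0.15 (adjusted p = 0.000637), and *Top2a* was 2.27-fold higher, at 1.18 ± 0.22 (adjusted p = 0.00879). *Kif11* was at 1.24 ± 0.24 (adjusted p = 0.0114) and *Ccna2* at 0.90 ± 0.18 (adjusted p = 0.0136). All 7 of these genes were higher in both double-positive libraries than in both Pdgfra-only libraries.

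The replication genes of highest level did not pass the test between the Pdgfra-positive populations. *Pcna* was at 0.38 ± 0.16 (SE, adjusted p = 0.218), *Mcm6* at 0.39 ± 0.16 (adjusted p = 0.198), *Rrm2* at 0.36 ± 0.22 (adjusted p = 0.439) and *Rrm1* at 0.13 ± 0.16 (adjusted p = 0.722). Within the Mcm ring the subunits differed, from 0.99 ± 0.17 for *Mcm2* (adjusted p = 0.00525) to -0.03 ± 0.20 for *Mcm3* (adjusted p = 0.968). *Mcm2* and *Uhrf1* (1.00 ± 0.24, adjusted p = 0.0325) are the replication members that passed, and voom did not call *Uhrf1*. Voom called 11 of the 45, without *Uhrf1*, *Anln*, *Cdc20* and *Cenpf*. The calls of *Mcm2* and *Uhrf1* were both lost in a fit of the compared populations alone, where their log2 fold changes stayed at 0.99 and 1.00. Both calls were also lost without replicate 2 of the Pdgfra-only cells. In the Pdgfra-only libraries the signal was 11 and 10.8 for *Mcm2* and 13.2 and 8.46 for *Uhrf1*.

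Marker lists moved in the same comparison. In limma 5 of 5 osteoblast genes, 4 of 6 Schwann cell precursor genes, 2 of 7 muscle genes and 2 of 5 pericyte genes were called higher in double-positive than in Pdgfra-only cells, and 3 of 6 chondrocyte genes lower, with the sums given above. In addition 1 of 5 mesenchymal genes and 1 of the neuronal genes were higher, and 1 of 9 blood and myeloid genes and 1 of the neuronal genes lower. The part of these cells in the result was not tested.

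The number of calls in this comparison rests on few libraries. Without replicate 2 of the Pdgfra-only cells 3 members were called, and without replicate 1 of the double-positive cells 7. A fit of the compared populations alone called 5 members and lost *Ccna2* and *Kif11* (0.90 and 1.24, as in the fit of all libraries). A fit without the trend of variance on mean called 7, and lost these and *Top2a* (1.18). The call of *Top2a* was lost without replicate 1 of the double-positive cells (log2 fold change 0.87) or replicate 2 of the Pdgfra-only cells (0.96). The calls of *Ccna2* and *Kif11* were lost without either of these (0.85 and 0.64 for *Ccna2*, 1.14 and 0.85 for *Kif11*) and without replicate 2 of the double-positive cells (0.94 and 1.34). *Mki67* and *Kif20a* kept their calls without any 1 library.

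The third question is how the GFP-positive cells differ by Pdgfra. Of the 45 members, 20 were called lower in double-positive than in GFP-only cells, where 11.1% of all genes were called lower, 13.1% higher and 24.2% in either direction. In limma 0 members were called higher, and 0 were higher at an unadjusted p under 0.05, in edgeR or in voom. For 38 of 45 members both double-positive libraries lay below both GFP-only libraries (31.2% of all genes). The median log2 fold change was -0.68, beside -0.02 over all genes, and it was -0.68 for mitosis and -0.69 for replication members. The calls were 9 of 27 mitosis and 11 of 18 replication members.

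The medians of the lists were thus alike, and whether the lists differ in their calls was not tested. *Ccne1* had the largest decrease, at -1.95 ± 0.36 (SE, n = 2, limma adjusted p = 0.00181). *Mcm3* followed at -1.69 ± 0.20 (adjusted p = 8.94e-05), and 5 of the 6 Mcm subunits were called, with *Mcm4* at -0.47 the exception. *Cdc6* was at -1.14 ± 0.28 (adjusted p = 0.0103), *Rrm2* at -0.91 ± 0.22 (adjusted p = 0.011), *Mcm6* at -0.73 ± 0.16 (adjusted p = 0.0051), *Pcna* at -0.70 ± 0.16 (adjusted p = 0.00734) and *Rrm1* at -0.58 ± 0.16 (adjusted p = 0.0192). These 7 genes were lower in both double-positive libraries than in both GFP-only libraries.

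Among the mitosis members, *Aurkb*, the kinase of the chromosomal passenger complex, had the largest decrease at -1.26. *Mki67* was at -0.93 ± 0.15 (SE, adjusted p = 0.000813), *Ccna2* at -0.90 ± 0.18 (adjusted p = 0.00351), *Kif11* at -0.80 ± 0.24 (adjusted p = 0.031) and *Top2a* at -0.73 ± 0.22 (adjusted p = 0.0315). *Kif20a* was at 0.03 ± 0.24 (adjusted p = 0.947) and did not pass the test.

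This count too rests on few libraries. Without replicate 1 of the GFP-only cells 7 members were called, without replicate 2 of those cells 13, and without replicate 2 of the double-positive cells 13, while a fit without the trend of variance on mean called 11 and lost *Top2a* (-0.73), *Kif11* (-0.80), *Pcna* (-0.70) and *Rrm1* (-0.58). A fit of the compared populations alone lost *Top2a* (-0.73) and *Cdc6* (-1.14), and a fit without the double-negative population lost *Cdc6* (-1.14). Without replicate 1 of the GFP-only cells the calls of *Top2a* (-0.50), *Ccna2* (-0.81), *Kif11* (-0.56), *Pcna* (-0.63), *Rrm1* (-0.55) and *Cdc6* (-0.91) were lost. Without replicate 2 of those cells the calls of *Rrm1* (-0.60) and *Rrm2* (-0.78) were lost. Without replicate 2 of the double-positive cells the calls of *Top2a* (-0.42), *Kif11* (-0.70) and *Rrm1* (-0.48) were lost, and without replicate 1 those of *Kif11* (-0.91) and *Rrm2* (-0.67). *Mki67*, *Mcm6* and *Ccne1* kept their calls without any 1 library. In the same comparison 6 of 7 muscle, 5 of 6 Schwann cell precursor, 4 of 5 pericyte, 4 of 8 erythroid and 2 of 9 blood and myeloid genes were called lower in double-positive cells. Called higher were 5 of 5 osteoblast, 4 of 5 mesenchymal, 3 of 6 chondrocyte, 1 of 6 Schwann cell precursor and 1 of the neuronal genes, and their part in the result was not tested.

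**Figure D3:**
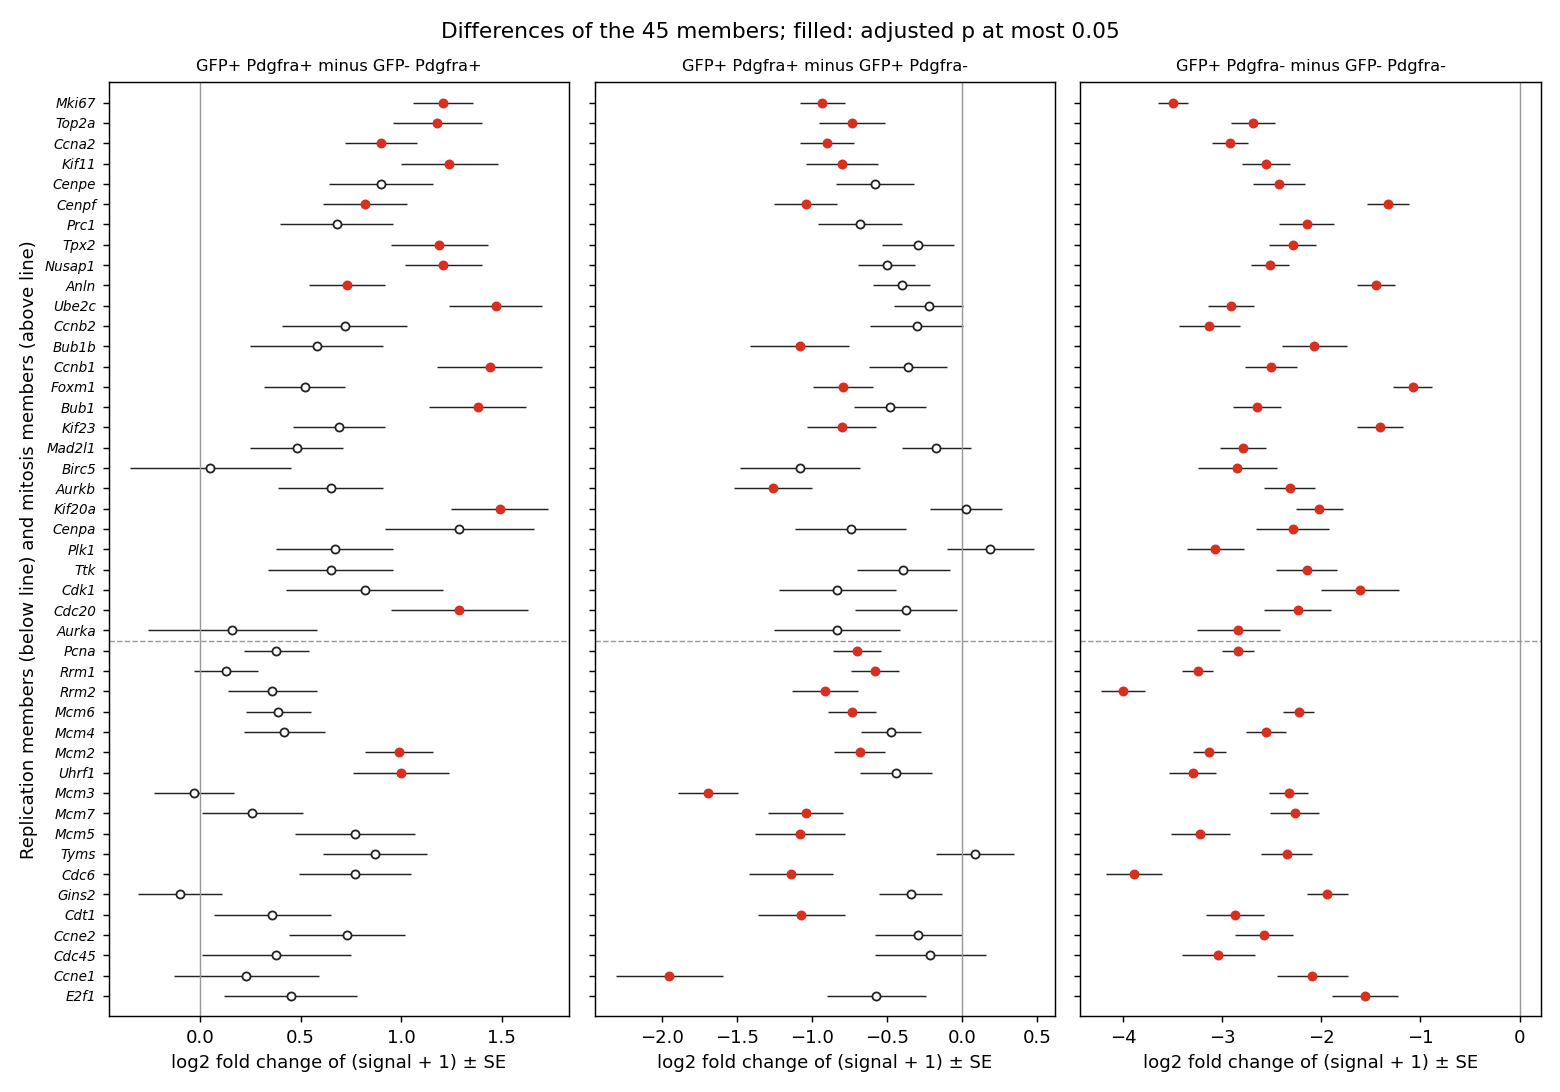
Log2 fold changes of the signal plus 1 (horizontal axes, with different ranges) for the 45 members in 3 comparisons, with bars of 1 SE (n = 2 libraries per population) and filled points for limma adjusted p of at most 0.05. Between the Pdgfra-positive populations 13 of 15 filled points are mitosis members, between the GFP-positive populations 11 of 20 are replication members, and 45 of 45 members are filled on the right.

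The fourth question is how the populations with a single label compare. Of the 45 members, 39 were called higher in GFP-only than in Pdgfra-only cells, where 13.5% of all genes were called higher, 14.3% lower and 27.9% in either direction. In limma 0 members were called lower, and 0 were lower at an unadjusted p under 0.05, in edgeR or in voom. For 43 of 45 members both GFP-only libraries lay above both Pdgfra-only libraries (33.1% of all genes), with *Cdc45* and *Gins2* the exceptions. The median log2 fold change was 1.46, or 2.75-fold, beside 0.03 over all genes, and it was 1.65 for mitosis and 1.20 for replication members. The calls were 23 of 27 mitosis members and 16 of 18 replication members. *Aurka*, *Plk1*, *Birc5*, *Mad2l1*, *Cdc45* and *Gins2* did not pass the test.

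*Ccne1* had the largest increase in GFP-only over Pdgfra-only cells, at 2.19 ± 0.36 (SE, n = 2, adjusted p = 0.000662). *Mki67* was 4.41-fold higher, at 2.14 ± 0.15 (adjusted p = 8.42e-07), *Kif11* 4.12-fold, at 2.04 ± 0.24 (adjusted p = 6.5e-05), and *Top2a* 3.76-fold, at 1.91 ± 0.22 (adjusted p = 5.39e-05). *Cdc6* was at 1.91 ± 0.28 (adjusted p = 0.000278), *Ccna2* at 1.80 ± 0.18 (adjusted p = 1.89e-05) and *Kif20a* at 1.46 ± 0.24 (adjusted p = 0.00065). Of the other replication members with full statistics, *Rrm2* was at 1.27 ± 0.22 (adjusted p = 0.00113), *Mcm6* at 1.13 ± 0.16 (adjusted p = 0.000219), *Pcna* at 1.08 ± 0.16 (adjusted p = 0.000324) and *Rrm1* at 0.71 ± 0.16 (adjusted p = 0.00501). The call of *Rrm1* was lost without replicate 1 of the Pdgfra-only cells (0.59). In this comparison 6 of 7 muscle, 5 of 6 Schwann cell precursor, 4 of 5 pericyte, 4 of 8 erythroid, 2 of 5 osteoblast and 1 of 9 blood and myeloid genes were also called higher in GFP-only cells. Called lower were 4 of 5 mesenchymal, 4 of 6 chondrocyte, 1 of 5 osteoblast, 1 of 6 Schwann cell precursor, 1 of 5 pericyte and 1 of the neuronal genes, and their part in the result was not tested.

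For 43 of 45 members (all but *Mcm3* and *Gins2*) the fold change with GFP was positive among Pdgfra-positive cells, where 15 passed the test, and negative among Pdgfra-negative cells, where 45 did. The difference itself was tested as an interaction: the GFP effect in Pdgfra-positive cells minus that in Pdgfra-negative cells. All 45 members had a positive interaction past the threshold, where 19.1% of all genes were called positive, 25.2% negative and 44.3% in either direction. In limma 0 members were called negative, and 0 were negative at an unadjusted p under 0.05, in edgeR or in voom. The median was 3.31 for the members and -0.16 for all genes, with a range from 1.60 for *Foxm1* to 4.71 for *Mki67*. The double-negative libraries, which carried the erythroid signal, enter this difference.

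Levels can be compared between genes per kilobase of exon, with the NCBIM37 exons of each gene. On this scale *Mki67* was the most abundant mitosis member in each population, at 27.2 in double-positive, 11.7 in Pdgfra-only, 52 in GFP-only and 588 in double-negative cells. *Pcna* was the most abundant replication member in each, at 21.7, 16.6, 35.4 and 256 in the same order. The next mitosis members per kilobase were *Ccna2*, *Ccnb2* and *Top2a* in double-negative cells, at 153, 123 and 116. Both subunits of ribonucleotide reductase were close to each other there, with *Rrm2* at 152 and *Rrm1* at 129. In the other populations *Rrm2* lay below *Rrm1*, at 4.8 against 8.87 in double-positive, 3.63 against 8.07 in Pdgfra-only and 9.22 against 13.3 in GFP-only cells.

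The 6 Mcm subunits spanned 50.7 (*Mcm7*) to 98.2 (*Mcm2*) per kilobase in double-negative cells and 3.09 (*Mcm5*) to 10.3 (*Mcm4*) in double-positive cells. The lists also changed places. The median level per kilobase was 34.3 for mitosis and 63.3 for replication members in double-negative cells, 8.69 and 7.68 in GFP-only cells, 4.97 and 5.01 in double-positive cells and 2.79 and 3.16 in Pdgfra-only cells. The low end differed between populations. In double-positive cells *Aurka* was lowest at 0.776, followed by *Ccne1* at 0.844 and *Cdc6* at 0.889 per kilobase. In double-negative cells *E2f1* was lowest at 12.2, followed by *Aurka* at 15.2 and *Cdk1* at 16.5, and *Cdc6* was at 35.

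The replicates differed for the mitosis members. In double-positive cells 22 of 27 were higher in replicate 1 than in replicate 2, in Pdgfra-only cells 21, in GFP-only cells 20 and in double-negative cells 9. The median difference of replicate 1 from replicate 2 was 0.32, 0.38, 0.18 and -0.06 in log2, beside medians between -0.02 and 0.03 over all genes. The replication members were higher in replicate 1 for 12, 11, 9 and 6 of 18. A fit with the replicate as a block called 17 members in place of 15 between the Pdgfra-positive populations, and the same numbers as without it (20, 39 and 45) in the other comparisons.

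Genes of the same pathways outside the 45 were followed in 13 further lists, none of which shares a gene with the members. In the GFP-only, Pdgfra-only and double-positive cells most lists of replication and division were lower than in double-negative cells. The counts of these lists stand beside 23.6%, 26.8% and 26.4% of all genes called lower and 30.1%, 32.9% and 32.9% called higher. Of 20 genes for DNA polymerases, clamp loader and RPA, 20 were called lower in each of the 3 comparisons, with medians of -2.10, -2.53 and -2.77. The ligase *Lig1*, which joins Okazaki fragments, was at 31.3 and 25.7 in double-positive, 15.8 and 18 in Pdgfra-only, 44.3 and 51.6 in GFP-only and 286 and 397 in double-negative libraries. Of 16 genes for origin recognition and firing, 14, 15 and 15 were called lower. In that list *Wdhd1* was at 322 and 278 in double-negative libraries and at 29.7 or less elsewhere, whereas the origin subunit *Orc4* did not pass the test, at 0.09, 0.17 and 0.09 in log2.

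Of 12 genes for nucleotide supply and chromatin assembly, 11 were called lower in each of the 3 comparisons, with medians of -2.37, -3.29 and -3.06. The maintenance methylase *Dnmt1* was at 62.6 and 60.8 in double-positive, 66.9 and 73.2 in Pdgfra-only, 83.6 and 92 in GFP-only and 474 and 553 in double-negative libraries. The exception was *Shmt1*, a folate enzyme, which was called higher in GFP-only than in double-negative cells at 2.19. Of 15 S-phase and G2 checkpoint genes, 13, 14 and 14 were called lower, and the repair gene *Brca1* was at 239 and 201 in double-negative libraries and at 21.5 or less elsewhere. Against double-negative cells these lists thus moved in the direction of the replication members, and whether they moved by the same amounts was not tested.

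Mitotic lists moved in the same direction. Of 18 further spindle and kinesin genes, 17, 18 and 18 were called lower in GFP-only, Pdgfra-only and double-positive than in double-negative cells. Of 23 further kinetochore and checkpoint genes, 22, 21 and 20 were called lower. Of 11 condensin, cohesin and separase genes, 10 were called lower in each, and the condensin subunit *Smc4* had the highest mean, at 106 and 115 in double-positive, 87.1 and 72.6 in Pdgfra-only, 191 and 173 in GFP-only and 732 and 749 in double-negative libraries. The exception in that list was the securin gene *Pttg1*, at -0.48, -0.13 and -0.66, which did not pass the test. After median centring and after quantile normalization all 11, *Pttg1* included, were called lower in GFP-only and double-positive cells, and 10 in Pdgfra-only cells. Of 4 cytokinesis genes 3 were called lower in each comparison. *Cep55* was at 0.718 and 1.3 in double-negative libraries and between 0.882 and 5.39 elsewhere, near the floor of counting. It was called higher in GFP-only (1.46) and double-positive (1.45) than in double-negative cells, and both calls were lost after median centring and after quantile normalization.

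The subunits of the anaphase-promoting complex, which are present throughout the cycle, moved less. Of 14 subunits and regulators 6, 7 and 7 were called lower and 1, 3 and 2 higher, with medians of -0.45, -0.44 and -0.34. When each library was centred on its median 8 were called lower in each comparison and 0, 0 and 1 higher, with medians of -0.9, -0.89 and -0.83. Its inhibitor *Fbxo5* was an exception, at -2.29, -3.66 and -3.91. Levels of the core subunit *Anapc1* were 163 and 136 in double-positive, 175 and 165 in Pdgfra-only, 159 and 179 in GFP-only and 292 and 279 in double-negative libraries.

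Between the Pdgfra-positive populations the mitotic lists held most of the calls, in a comparison with 3.22% of all genes called higher and 2.13% lower. Of the 18 spindle and kinesin genes 8 were called higher in double-positive than in Pdgfra-only cells, with a median of 0.95, and 3 of 23 kinetochore genes, 2 of 11 condensin and cohesin genes and 1 of 4 cytokinesis genes (*Racgap1*, at 1.76) were called higher. For the spindle, kinetochore and condensin lists edgeR called 8, 3 and 2, whereas voom called 1, 1 and 0. Of the polymerase list 0 of 20 were called in limma, with 1 gene at an unadjusted p under 0.05 and 0 in edgeR and voom, and the median was 0.13. Of the nucleotide and chromatin list 0 of 12 were called, with 1 at an unadjusted p under 0.05 and 0 in edgeR and voom, and the median was 0.17. Of the S-phase and G2 checkpoint list 0 of 15 were called, with 6 higher and 1 lower at an unadjusted p under 0.05 and 0 in edgeR and voom. For the anaphase-promoting complex 0 of 14 were called, with 2 at an unadjusted p under 0.05 and 0 in edgeR and voom. The difference between the lists was not tested. In the origin list *Dbf4*, the activator of the kinase that fires origins, was the 1 gene called, at 1.09. It was called in edgeR too, but not in voom and not after median centring or quantile normalization of the libraries.

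Regulators upstream of the cycle did not follow a single direction. Of 6 G1 cyclins and kinases, 2 were called higher in each of GFP-only, Pdgfra-only and double-positive than in double-negative cells, and 2, 3 and 4 lower. The medians of 0.04, -0.60 and -0.73 became -0.42, -1.06 and -1.21 after median centring. *Ccnd1*, the cyclin that links growth signals to the cycle, was at 129 and 128 in double-positive, 115 and 72 in Pdgfra-only, 143 and 159 in GFP-only and 21.1 and 17.8 in double-negative libraries. *Ccnd2* was at 278 and 260 in double-positive, 383 and 311 in Pdgfra-only, 144 and 165 in GFP-only and 71.9 and 69 in double-negative libraries. Both D cyclins were thus lowest in the double-negative cells, where the 45 members were highest. *Ccnd3* changed less, at 113 and 120, 125 and 134, 134 and 152, and 144 and 165 in the same order. In limma 0 of the 6 were called between the Pdgfra-positive populations, with 1 higher and 1 lower at an unadjusted p under 0.05 and 0 in edgeR and voom.

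Among inhibitors of cyclin-dependent kinases, the 2 of highest mean were lowest in the double-negative cells. *Cdkn1c*, which encodes p57, was at 452 and 394 in double-positive, 481 and 479 in Pdgfra-only, 973 and 1113 in GFP-only and 19.7 and 26.5 in double-negative libraries. Its log2 fold change from double-negative to GFP-only cells was 5.45 ± 0.15 (SE, limma adjusted p = 2.64e-10). *Cdkn1a*, which encodes p21, was at 181 and 102 in double-positive, 96.7 and 91.3 in Pdgfra-only, 119 and 131 in GFP-only and 13.1 and 13.1 in double-negative libraries. GFP-only cells thus had both the highest *Cdkn1c* and, among the 3 labelled populations, the highest levels of the members. *Cdkn1b* stayed between 63 and 82.9 in the 8 libraries, and *Cdkn2a* was not in the table. Of the 6 inhibitors 2 were called higher in each labelled population than in double-negative cells, a share close to the 30.1%, 32.9% and 32.9% of all genes, and 0, 2 and 1 were called lower in GFP-only, Pdgfra-only and double-positive cells. In GFP-only cells, in place of the 0 of limma, 1 was lower at an unadjusted p under 0.05, 1 in edgeR and 0 in voom, and 2 were called lower after median centring and 1 after quantile normalization. The medians of this list, 0.22, 0.12 and 0.44, became -0.23, -0.34 and -0.04 after median centring, so the list as a whole has no stable direction. Between the Pdgfra-positive populations 0 of 6 were called, with 1 at an unadjusted p under 0.05 and 0 in edgeR and voom.

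Of 19 genes of the Rb family, the E2F factors and the MuvB complexes, 13, 15 and 14 were called lower in GFP-only, Pdgfra-only and double-positive than in double-negative cells, with medians of -1.14, -2.22 and -1.74. Called higher were 2, 2 and 1 (*Rbl2* in each, *Mybl1* in GFP-only and Pdgfra-only cells), which became 0, 1 and 0 after median centring. *E2f2* changed most in Pdgfra-only (-7.10) and double-positive cells (-5.56), and the B-Myb gene *Mybl2* in GFP-only cells (-4.16). *E2f2* was at 17.3 and 6.18 in double-positive, 1.89 and 4.31 in Pdgfra-only, 88.5 and 80.1 in GFP-only and 463 and 624 in double-negative libraries. *Rb1*, the brake on E2F, was at 52.3 and 43.6 in double-positive, 24.8 and 24.8 in Pdgfra-only, 142 and 119 in GFP-only and 254 and 270 in double-negative libraries. *E2f2* and *Rb1* thus had the same order of populations as the members, whereas *Rbl2* and *Mybl1* did not. *E2f2* and *Rb1* were also the 2 genes of the list called higher in double-positive than in Pdgfra-only cells, at 1.55 and 0.92, while voom called 1 gene.

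Of 13 genes linked to quiescence, 11, 9 and 9 were called higher in GFP-only, Pdgfra-only and double-positive than in double-negative cells, with medians of 2.03, 1.91 and 1.35. After median centring 9, 8 and 8 were called higher, with smaller medians of 1.57, 1.46 and 0.87. *Cdkn1b*, *Cdkn1c* and *Rbl2* of this list also belong to the lists above. *Gas1*, a growth arrest gene, was at 172 and 191 in double-positive, 456 and 441 in Pdgfra-only, 221 and 215 in GFP-only and 9.91 and 6.72 in double-negative libraries, and was lower in double-positive than in Pdgfra-only cells at -1.30 ± 0.17 (SE, limma adjusted p = 0.000864). *Btg2*, an antiproliferative gene, ran the other way, at 67 and 73.7 in double-positive, 35.7 and 38.5 in Pdgfra-only, 265 and 308 in GFP-only and 127 and 145 in double-negative libraries. *Foxo3* was lower in each labelled population than in double-negative cells, at -0.71, -0.75 and -0.66. Against double-negative cells most of the list was thus called higher in the 3 labelled populations. Called lower were *Foxo3* in all 3 and *Btg2* in Pdgfra-only and double-positive cells, and other genes did not pass the test. In double-positive cells 1 was called higher and 5 lower than in GFP-only cells (median -0.27, all genes: 13.1% and 11.1%). Against Pdgfra-only cells 1 was higher and 1 lower (median 0.07, all genes: 3.22% and 2.13%). In GFP-only cells 5 were called higher and 4 lower than in Pdgfra-only cells (median 0.05, all genes: 13.5% and 14.3%).

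Members that move together may share letters in their promoters, so the RefSeq promoters of GRCm38.p6 (windows of 300 bases around the gene start) were searched on both strands. Of the 45 members 37 had a promoter in that table, 22 of mitosis and 15 of replication. The motifs were the CHR, spelled TTTGAA, to which MuvB complexes bind, and the CCAAT box, spelled CCAAT, to which NF-Y binds. The E2F motif was any of TTTCCCGC, then TTTCGCGC, then TTTGCCGC, then TTTGGCGC. The letters of the motifs do not overlap in the promoters printed here.

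Whether the lists differ in these letters was not tested. The CHR was in 16 of 22 mitosis promoters (72.7% of genes) and 2 of 15 replication promoters (13.3%), beside 20.2% of the 27025 genes with a promoter. The CCAAT box was in 18 of 22 mitosis (81.8%) and 10 of 15 replication promoters (66.7%), beside 41.1% of all. The E2F motif was in 1 of 22 mitosis (4.55%) and 7 of 15 replication promoters (46.7%), beside 2.6% of all. Both a CHR and a CCAAT box were in 15 of 22 mitosis promoters (68.2%), beside 8.97% of all. A match is a description of the letters and not of binding.

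The promoters of the mitosis members of highest level are printed 5′ to 3′ to show the clusters of CCAAT boxes with a CHR between them and the gene start, and those of the replication members of highest level with a match to show CCAAT boxes without a CHR. Capitals mark the motifs, read on either strand. *Mki67* (chr7:135716330-135716629, minus strand) has 3 CCAAT boxes and 2 CHR, the latter 116 and 98 bases before the gene start. *Top2a* (chr11:99024140-99024439, minus strand) has 6 CCAAT boxes and 2 CHR, at 179 bases before the start, among the boxes, and at 23. *Pcna* (chr2:132253131-132253430, minus strand) has 1 CCAAT box, 87 bases before the start, and *Rrm1* (chr7:102441445-102441744, plus strand) has 2. Neither *Pcna* nor *Rrm1* has a match to the E2F motif, which 7 of 15 replication promoters have.
Mki67: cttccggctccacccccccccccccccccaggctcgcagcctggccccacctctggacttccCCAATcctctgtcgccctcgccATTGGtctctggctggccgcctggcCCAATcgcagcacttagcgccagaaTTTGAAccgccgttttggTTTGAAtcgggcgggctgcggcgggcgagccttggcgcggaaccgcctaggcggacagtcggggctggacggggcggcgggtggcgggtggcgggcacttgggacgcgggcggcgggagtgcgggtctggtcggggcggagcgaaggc
Top2a: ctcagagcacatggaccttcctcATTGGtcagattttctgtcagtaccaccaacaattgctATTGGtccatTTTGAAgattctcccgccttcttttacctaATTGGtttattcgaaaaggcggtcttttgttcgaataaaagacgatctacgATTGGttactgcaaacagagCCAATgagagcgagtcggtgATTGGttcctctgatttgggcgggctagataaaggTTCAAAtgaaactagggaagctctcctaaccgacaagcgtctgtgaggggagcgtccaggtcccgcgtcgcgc
Pcna: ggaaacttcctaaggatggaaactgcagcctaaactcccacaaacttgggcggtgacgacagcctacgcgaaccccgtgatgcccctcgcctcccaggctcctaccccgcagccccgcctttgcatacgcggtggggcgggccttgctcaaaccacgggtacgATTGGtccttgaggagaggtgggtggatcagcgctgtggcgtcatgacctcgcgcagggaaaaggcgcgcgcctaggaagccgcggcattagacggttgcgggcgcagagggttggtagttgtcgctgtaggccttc
Rrm1: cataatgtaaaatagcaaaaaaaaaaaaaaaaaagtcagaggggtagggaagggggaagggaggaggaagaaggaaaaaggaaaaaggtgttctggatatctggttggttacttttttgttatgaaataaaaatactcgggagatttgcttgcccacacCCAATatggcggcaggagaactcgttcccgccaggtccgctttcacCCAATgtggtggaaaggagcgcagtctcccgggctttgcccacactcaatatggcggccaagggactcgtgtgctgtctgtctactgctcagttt

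Several members share exon bases with another gene. Besides *Kif20a* and *Gins2*, *Ccna2* overlaps *Exosc9* by 428 bases, *Ccne2* overlaps *Ints8* by 474, *Mcm7* overlaps *Ap4m1* by 247 and *Cops6* by 64, *Nusap1* overlaps *Oip5* by 172, *Cdc45* overlaps *Ufd1l* by 164, *Ube2c* overlaps *Tnnc2* by 144 *Cdc20* overlaps *Elovl1* by 53 and *Tyms* overlaps *Gm17448* by 14, each on the opposite strand. *Foxm1* shares 144 bases with *4933413G19Rik* on its own strand, and small RNAs lie on the same strand in *Mcm7* (*Mir93*, 88 bases, and *Mir25*, 84) and in *Top2a* (*SNORA32*, 122). Reads of the stretches on opposite strands cannot be assigned to a gene without the strand, and reads of the stretches on the same strand cannot be assigned by strand at all. The values of these members are therefore uncertain by that part.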

How the data were processed

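RNA-seq of 8 libraries from 4 sorted populations of neonatal bone marrow stroma was analysed. By the submitters' notes and the study's methods, the authors trimmed reads with cutadapt, quantified them with RSEM 1.17 on NCBIM37 (Ensembl build 65) and normalized with voom. The signal values had been normalized by the authors before they were deposited and are linear, and 100% of them gave whole reads within 0.1 when scaled back. All columns were mapped to samples. Identifiers were matched to GENCODE M1 (15849 of 15880), and 74 symbols have more than 1 identifier.

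For the tests, log2(signal + 1) of all 15880 genes was given to limma 3.58.1 under R 4.3.3. A mean was fitted for each population by lmFit, which left 4 residual degrees of freedom, variances were moderated by eBayes along a trend on the mean, and p-values were adjusted by Benjamini-Hochberg. Simulated tables served to try the code. Alternatives were a fit of the compared populations alone, the replicate as a block, no trend, a pseudocount of 0.1, median centring, quantile normalization, a filter (signal over 2 in at least 2 libraries), voom and edgeR 4.0.16 on the recovered reads, a threshold of 0.10 and leaving out each library. A fit without the double-negative population was chosen after seeing the data. Replicate numbers were read as shared pools of pups, since the study describes each set as pooled littermates. Deviations of same-numbered libraries were correlated at 0.004 to 0.081 across genes.

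The members and lists were chosen with earlier results of these data known. Full statistics are given for *Mki67*, for the 4 mitosis and 4 replication members of highest mean and for the largest called change in each direction per comparison. Other members are given by role, and other lists with up to 4 genes of highest mean. Other genes of those lists named for standing apart from their list were chosen after their values were seen. The remaining code ran in Python 3.11.15 (pandas 2.3.3, numpy 2.4.6, scipy 1.17.1, matplotlib 3.10.9).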

Additional observations from a re-analysis of the deposited data

Results flagged for a closer look

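For each member named with full statistics, the effect of GFP differed between Pdgfra-positive and Pdgfra-negative cells by the interaction test in limma (log2, positive where GFP goes with more signal in Pdgfra-positive cells than in Pdgfra-negative cells). Among mitosis members the difference was 4.71 for *Mki67*, 3.87 for *Top2a*, 3.82 for *Ccna2*, 3.80 for *Kif11* and 3.51 for *Kif20a*. Among replication members it was 4.66 for *Cdc6*, 4.36 for *Rrm2*, 3.39 for *Rrm1*, 3.22 for *Pcna*, 2.62 for *Mcm6* and 2.32 for *Ccne1*. The largest adjusted p of the 11 was 0.00264, for *Ccne1*, and in each of the 11 the double-negative libraries were the highest.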

How the results depend on the processing

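The counts of members against double-negative cells and of the interaction were 45 in the reported fit and under each alternative run for them, leaving out any library included. Of 1408 values of the 11 named members under alternatives, 1374 kept their direction and side of the threshold, 34 lost the call and 0 changed direction. Between the Pdgfra-positive populations 15 members were called, 5 in a fit of the compared populations, 7 without the trend, 17 with the replicate block, 12 without the double-negative population (chosen after seeing the data), and between 3 and 14 when 1 library was left out. Between the GFP-positive populations 20 were called, 11 without the trend, 17 without the double-negative population and between 7 and 20 when 1 library was left out. Between the single-label populations 39 were called, 37 without the double-negative population and between 32 and 40 when 1 library was left out. The cause of these changes was not tested. The fits without the trend and with the block held all 8 libraries, and the other fits of this list held fewer. A library left alone in its population was assumed to vary like the others. The block changed no count by more than 1.5 times. Centring libraries on their medians moved the median of all genes from 0.15 to -0.30 for GFP-only, from 0.17 to -0.28 for Pdgfra-only and from 0.20 to -0.28 for double-positive against double-negative cells, with member medians of -2.97, -4.36 and -3.61. The share of higher genes among those called moved from 56.1% to 38.9%, from 55.1% to 40.6% and from 55.5% to 39.6% (44.2% with quantile normalization), and from 43.1% to 59.7% for the interaction, whose median moved from -0.16 to 0.27 (members 3.74). With 2 libraries per population, small differences of the low members are limited by the spread between pools.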
